A study of Mus musculus with 23 samples.

Results

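The data compared bone marrow KSL cells of untransplanted Ezh2 knockout mice with those of Control mice, 4 gene-expression libraries of the 23 samples in the series. KSL cells carry c-Kit and Sca1 and lack lineage markers, and hold the blood stem cells and early progenitors of the marrow. The 4 libraries were chosen by their labels as the baseline Ezh2_KO and Control samples. All mice carried Mx1-Cre, a Cre recombinase under the interferon-responsive Mx1 promoter. Control mice had no further allele in the labels, Ezh2 knockout mice carried Ezh2Δ/Δ and Jarid2 knockout mice carried Jarid2Δ/Δ. Each group had 1 library from male and 1 from female mice aged 2 months, and the 2 Jarid2 knockout libraries entered the models so that all 6 libraries shared an estimate of the spread. The labels do not name the exons deleted, the strain or any inducing agent. Marrow was enriched for c-Kit, sorted by flow cytometry, stained with barcoded antibodies and run on a droplet platform that counts 3′ ends of transcripts with unique molecular identifiers (UMIs).

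Ezh2 is the main methyltransferase of Polycomb repressive complex 2 (PRC2), which places methyl groups on lysine 27 of histone H3, a mark of silenced chromatin. Eed and Suz12 are its core partners, Ezh1 is a related enzyme, and Jarid2 is an accessory subunit. Polycomb complexes are known for silencing developmental regulators and the Cdkn2a locus, which encodes the cell cycle inhibitor p16Ink4a and the p53 activator p19Arf. In lymphoid progenitors Ezh2 is known for a part in B cell development.

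Kept barcodes had at least 1000 UMIs, at least 500 genes and at most 10% of UMIs from mitochondrial genes. They numbered 7162 and 8451 in the male and female Control libraries, 9491 and 10041 in the Ezh2 knockout libraries and 7783 and 7532 in the Jarid2 knockout libraries, or 50460 of 53070 deposited. Their summed UMIs ranged from 92105257 to 143133494 per library, and counting error at a level of 10 counts per 1000000 kept UMIs (CPM) was 2.64% to 3.30% of the value. Pairs of libraries shared 0.120% to 0.358% of the smaller library's barcodes. Class 11, defined below by clustering, held 10.1% of female Control and 8.96% of female Ezh2 knockout cells but at most 0.478% of each other library, so those 2 libraries stood apart in it. In sums over cells, fewer cells of a type and less RNA per cell cannot be told apart. Labels do not say whether each library came from 1 mouse or a pool, and p-values measure only the spread between these libraries. For a single value, 2 libraries against 2 cannot give an exact permutation p below 0.333.

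Ezh2 transcript itself was measured first. Over all kept cells its level was 210 and 193 CPM in Control, 163 and 151 CPM in Ezh2 knockout and 192 and 198 CPM in Jarid2 knockout libraries. Both Ezh2 knockout libraries lay below all others, with a log2 change of -0.32 ± 0.06 (SE) that missed the threshold (edgeR quasi-likelihood test, Benjamini-Hochberg adjusted p = 0.0564). A 3′ tag outside the deleted exons does not check the deletion. Within cell classes the transcript fell in 7 of 12 classes tested. The share of all tested genes called was 0.345% in class 1, 1.5% in class 2, 0.302% in class 3, 1.93% in class 4, 0.934% in class 5, 2.00% in class 6, 0.399% in class 7, 0.236% in class 8, 2.58% in class 9, 1.41% in class 10, 0.658% in class 12 and 7.69% in class 13. In class 13, the B-lineage-like class described below, it was 564 and 576 CPM in Control and 281 and 261 CPM in Ezh2 knockout, a log2 change of -1.03 ± 0.08 (adjusted p = 1.45e-05). In class 3, which is HSC-like (HSC, haematopoietic stem cell), the values of 60.4 and 51.8 CPM in Control overlapped those of 53.1 and 52.4 CPM in Ezh2 knockout.

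Transcripts of the other PRC2 subunits showed no call over all cells. Eed had a log2 change of 0.10, Suz12 of 0.04, Ezh1 of -0.13 and Jarid2 of -0.12. None of 14 PRC2 genes passed the edgeR test, where 3.71% of all genes did, while 2 higher and 1 lower had an unadjusted p under 0.05 and DESeq2 called 1 lower. Of all 18357 genes tested 4373 had such an unadjusted p. Ezh2 itself was under that unadjusted threshold, so these counts do not by themselves show a fall of another subunit. Bmi1, a subunit of Polycomb repressive complex 1 (PRC1) that holds Cdkn2a silent, rose. Its level was 18.8 and 18.9 CPM in Control, 32.9 and 32.4 CPM in Ezh2 knockout, and 19.9 and 19.6 CPM in Jarid2 knockout libraries. The log2 change was 0.83 ± 0.05 (adjusted p = 0.0129), the call held without any 1 of the 6 libraries, and Bmi1 rose within 8 of 12 classes. It was 1 of 21 PRC1 genes called, where 3.71% of all genes were called, and no other PRC1 gene passed over all cells. Before adjustment 3 PRC1 genes were higher and 3 lower at an edgeR p under 0.05.

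Over all kept cells 681 of 18357 genes tested differed at an adjusted p under 0.05, which is 3.71% of them. Of these 549 rose (2.99%) and 132 fell (0.719%), and the median change of all genes was -0.01 on the log2 scale. Before adjustment 4373 of the 18357 genes had an edgeR p under 0.05, and DESeq2 called 1128 genes higher and 381 lower. Counts of either kind in a gene list are to be read beside these numbers. The 2 Ezh2 knockout values did not overlap the 2 Control values for 656 of the 681, against 17.9% of all tested genes with no overlap on the higher side and 30.0% on the lower. Male and female libraries had the same sign for 680 of the 681. Those genes were called from these same libraries with a sex term, so the selection favours such agreement and it is no separate check. Without the sex term 19 genes were called. The count depended on single libraries too: it was 325 without Control 1, 176 without Control 2, 184 without Ezh2 KO 1 and 312 without Jarid2 KO 1, and 623 and 552 without the other two. Among 116 genes named by rule 96 were called, and 23 of these 96 remained called in every fit that left out 1 library.

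Of the cell classes, a B-lineage-like one was more frequent in Ezh2 knockout marrow. Cells of the Control libraries were clustered without the 681 called genes, and all cells took the class of their nearest Control cells, which gave 17 classes. Class 13 held 23 of the 31 listed B lineage markers among its higher genes, led by Igll1, Vpreb3, Vpreb1, Ebf1, Pax5 and Cd79a, which mark early B cell precursors, and was called B-lineage-like, although the sort excluded lineage-positive cells. It made up 6.72% of cells in Control 1 and 2.24% in Control 2, against 21.2% in Ezh2 KO 1 and 12.3% in Ezh2 KO 2, and 2.88% and 3.20% in the Jarid2 knockout libraries. Both Ezh2 knockout libraries lay above the other 4. The log2 change in share was 1.99 ± 0.46 (edgeR quasi-likelihood test on cell numbers, adjusted p = 0.0117), and this was the only class of 17 called, or 5.88%. Without the sex term the log2 change was 1.90 (adjusted p = 0.542), and at double the cluster resolution, where most of these cells lay in 2 classes, the changes were 1.86 and 2.46 (adjusted p = 0.125 for both). The adjusted p was 0.191 without Control 2, 0.755 without Ezh2 KO 1 and 0.596 without Ezh2 KO 2, with log2 changes of 1.45, 1.95 and 2.02. The HSC-like class 3 held 9.66% and 8.83% of Control and 5.66% and 8.75% of Ezh2 knockout cells, and the megakaryocyte-like class 7 held 7.99% and 10.8% against 6.49% and 7.71%. Neither was called. These are shares of all kept cells, which a larger class 13 lowers. Cells outside class 13 made up 93.3% and 97.8% of Control and 78.8% and 87.7% of Ezh2 knockout cells. Class 12 was at 4.57% and 2.21% against 5.75% and 2.68%, and was not called. It stayed unnamed because its leading genes held 2 dendritic cell markers and 1 early lymphoid marker, with Ccr9 on both lists. Among all its higher genes were 21 of 23 early lymphoid and 10 of 21 dendritic cell markers.

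**Figure D1:**
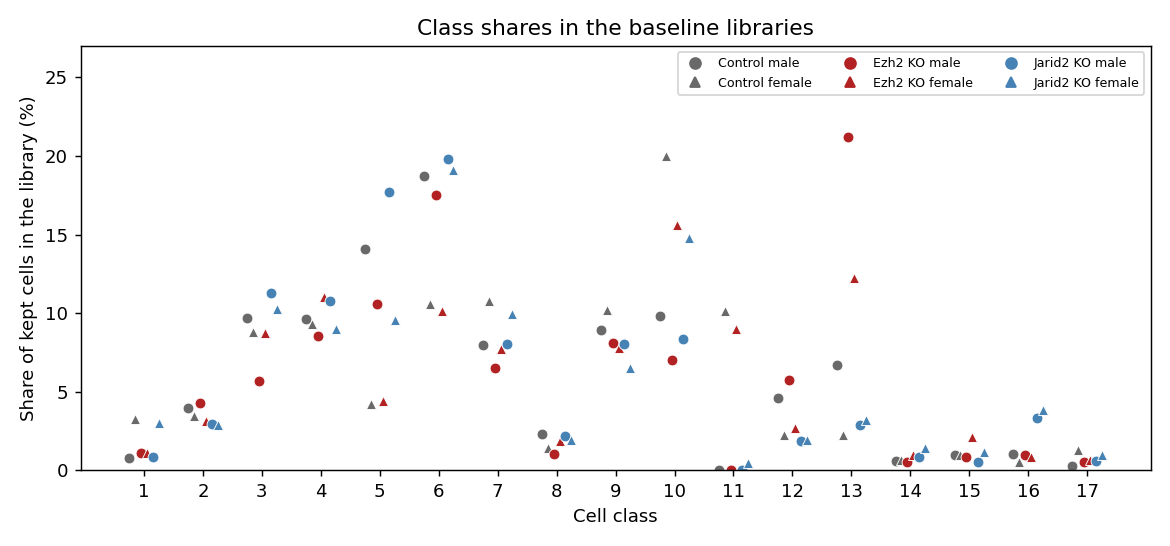
Share of kept cells (%) in each of the 17 cell classes, with 1 point per library (circles male, triangles female; grey Control, red Ezh2 knockout, blue Jarid2 knockout). In class 13 the Ezh2 knockout libraries are at 21.2% and 12.3% and every other library is at 6.72% or below.

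The antibody counts described class 13 by surface protein. Its median CD117 (c-Kit) count per cell was 59 and 69 in Control and 86 and 101 in Ezh2 knockout libraries, against 232, 241, 211 and 233 in all other cells of the same libraries. The streptavidin count that reads Sca1 was closer to the other cells, at 335 and 326 in Control and 348 and 415 in Ezh2 knockout class 13 cells against 406, 392, 376 and 448. Class 13 cells in every library thus had less c-Kit staining than the other cells. The median CD48 count, a marker of committed progenitors and lymphocytes, was 2327 and 1796 in Control class 13 cells and 1941 and 1530 in Ezh2 knockout ones. The median CD150 count, a marker of stem cells and megakaryocyte progenitors, was 9 and 13 in Control class 13 cells against 12 and 21 in the other cells, and 21 and 27 in Ezh2 knockout class 13 cells against 14 and 22. These class medians are descriptions with no test.

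Cdkn2a had the largest rise of the cell cycle inhibitors. Over all cells it was at 0.206 and 0.146 CPM in Control, 9.26 and 9.28 CPM in Ezh2 knockout and 0.130 and 0.0756 CPM in Jarid2 knockout libraries, so that only the Ezh2 knockout libraries were above 1 CPM. The log2 change was 5.77 ± 0.20 (edgeR, adjusted p = 0.00605) and the call held without any 1 library. In the Ezh2 knockout libraries class 13 held 1299 and 1194 Cdkn2a UMIs and all other classes 26 and 26. In class 13 the level was 1.85 and 0.916 CPM in Control and 45.7 and 77.8 CPM in Ezh2 knockout (log2 change 5.08 ± 0.24, adjusted p = 1.49e-06). Without class 13 cells the log2 change was 1.15 with an adjusted p of 0.319.

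The share of class 13 cells with a Cdkn2a UMI was 2.50% in Control 1 (95% exact binomial interval 1.30% to 4.32%) and 1.06% in Control 2 (0.128% to 3.77%). It was 30.2% in Ezh2 KO 1 (28.2% to 32.2%) and 43.3% in Ezh2 KO 2 (40.5% to 46.1%). The shares in all other classes of the 6 libraries lay between 0.0823% and 0.334%, at median depths of 10980 to 13100 UMIs in the 4 compared libraries against 9970 to 13650 in class 13. With cells thinned to 5000 UMIs the class 13 shares were 1.25% and 0.667% in Control and 18.6% and 29.8% in Ezh2 knockout, leaving out 81, 39, 391 and 286 shallower cells. Intervals cover counting error only. Most class 13 cells of the Ezh2 knockout libraries had no Cdkn2a UMI at this depth.

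The 2 RefSeq start sites of Cdkn2a (GRCm38.p6, chromosome 4, minus strand) are shown because their windows differ in CG content, CpG-rich promoters being the usual ground of Polycomb silencing. The upstream start is that of p19Arf and the downstream one that of p16Ink4a, and 3′ counts do not tell the transcripts apart. Each sequence is the 250 bases before the start, 5′ to 3′, with every CG in capitals.
Cdkn2a, upstream start, chr4:89294620-89294869: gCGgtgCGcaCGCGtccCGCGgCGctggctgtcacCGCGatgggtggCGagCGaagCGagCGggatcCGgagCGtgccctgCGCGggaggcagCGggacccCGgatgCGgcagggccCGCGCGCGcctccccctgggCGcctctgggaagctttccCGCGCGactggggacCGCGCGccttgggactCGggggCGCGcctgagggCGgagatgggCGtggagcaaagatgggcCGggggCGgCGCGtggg
Cdkn2a, downstream start, chr4:89282193-89282442: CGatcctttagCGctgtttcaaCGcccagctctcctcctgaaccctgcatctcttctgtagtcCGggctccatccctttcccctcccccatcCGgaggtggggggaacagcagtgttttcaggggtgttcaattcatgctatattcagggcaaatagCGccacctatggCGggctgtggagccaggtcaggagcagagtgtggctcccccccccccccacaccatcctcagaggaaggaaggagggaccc
The upstream window holds 40 CG pairs, with a GC content of 78.4%, and the downstream one holds 7 CG pairs with 60%. The motif CG reads the same on both strands. Of 32851 RefSeq promoter windows, 31.0% were CpG-rich, defined as an observed to expected CG ratio of at least 0.6 and a GC content of at least 50%; the upstream window met this with a ratio of 1.08 and the downstream one did not, with 0.316.

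Other inhibitors of cyclin-dependent kinases rose with Cdkn2a. Of 7 tested, 5 rose over all cells and none fell, where 2.99% of all genes rose, and 5 of 7 rose within class 13, where 6.21% of 12028 genes tested rose. Both counts are descriptions, since Cdkn2b over all cells, and Cdkn2a and Cdkn2b within class 13, pass the filter through the Ezh2 knockout libraries. Cdkn1a, which encodes p21 and is a p53 target, was at 13.5 and 9.19 CPM in Control and 23.4 and 25.7 CPM in Ezh2 knockout (log2 change 1.17 ± 0.16, adjusted p = 0.0341). Cdkn2c, which encodes p18Ink4c, was at 25.6 and 23.5 against 41.0 and 37.1 CPM (0.71 ± 0.05, adjusted p = 0.0181). The Cdkn2c call held without any 1 library, while the Cdkn1a call was lost without Control 2 (log2 change 0.91, adjusted p = 0.0527) and without Jarid2 KO 1 (1.17, adjusted p = 0.067). Cdkn2b, the neighbour of Cdkn2a that encodes p15Ink4b, had 3 UMIs in Control class 13 cells and 146 in Ezh2 knockout ones, a depth-adjusted ratio of 10.3 (exact 95% interval 3.44 to 50.3). Over all cells the Cdkn2b call was lost without Control 1 (log2 change 3.07), Control 2 (3.25) or Ezh2 KO 1 (2.85). In class 13 Cdkn1c, which encodes p57 and is imprinted, was at 5.97 and 3.21 CPM in Control and 17.6 and 19.9 CPM in Ezh2 knockout (log2 change 1.87 ± 0.23). Without class 13 cells 0.418% of all genes were called. Of 6 inhibitors tested there only Cdkn2c was called, with a log2 change of 0.40 (edgeR adjusted p = 0.0492).

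Part of the p53 targets rose in class 13. There 11 of 23 tested rose and none fell, where 6.21% of all genes rose. This count is a description too, since members of low level in Control, such as Zmat3 and Pmaip1, pass the filter through the Ezh2 knockout libraries. Zmat3, an RNA-binding p53 target, was at 0.711 and 1.83 CPM in Control and 13.7 and 27.6 CPM in Ezh2 knockout (log2 change 4.13 ± 0.28), and Bbc3, the pro-apoptotic gene for Puma, at 3.70 and 3.21 against 14.4 and 28.0 CPM (2.38 ± 0.27). Phlda3, a repressor of Akt signalling, was at 7.25 and 7.33 against 24.01 and 45.1 CPM (2.07 ± 0.19). Pmaip1, which encodes the pro-apoptotic protein Noxa, rose by 2.82 and Fas, a death receptor, by 2.05 on the log2 scale. In each of these genes both Ezh2 knockout libraries lay above both Control libraries, and the female Ezh2 knockout library was the highest. Over all cells 4 of 28 p53 targets rose, where 2.99% of all genes did. Without class 13 cells none of 28 was called by edgeR, where 0.418% of all genes were called (DESeq2 was not run on those cells). Before adjustment 6 were higher and 0 lower at p under 0.05 there. The number of all genes with such a p in that fit is not given here, so these counts are not read as a shift of the list.

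**Figure D2:**
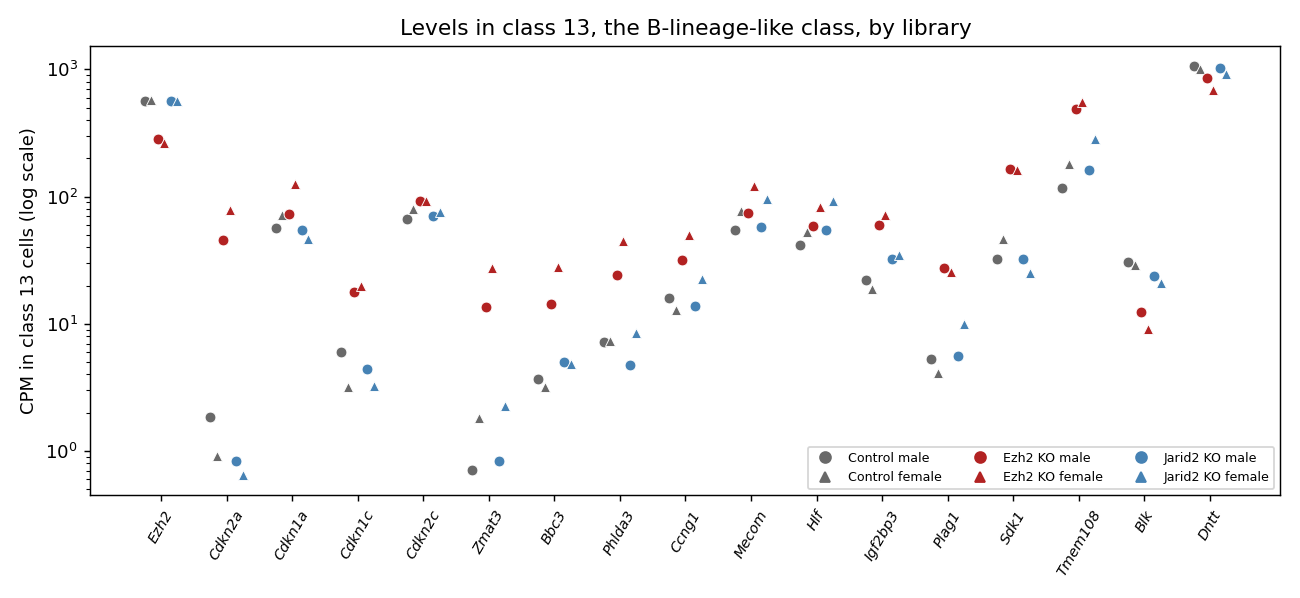
CPM (log scale) of 17 genes in class 13 cells, with 1 point per library (circles male, triangles female). Cdkn2a, at 45.7 and 77.8 CPM in Ezh2 knockout, is 1.85 CPM or less in every other library, and Ezh2 itself is lower in the Ezh2 knockout libraries.

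Class 13 cells of Ezh2 knockout mice also carried transcripts that the Control cells of that class had at low levels. Within class 13, 747 genes rose (6.21%) and 178 fell (1.48%), 925 in all, against 503 without Control 1 and 874 to 1212 without each of the other libraries. Pcp4, a calmodulin-binding protein of neurons, had 1 UMI in Control and 1130 in Ezh2 knockout class 13 cells. The transcription factors Foxc1 and Isl1 had 0 UMIs in Control class 13 cells, from totals of 7032867 and 2182612 UMIs, and 237 and 186 in Ezh2 knockout ones, at least 16.6-fold and 13.1-fold higher against a floor of 3 counts over the group. The metallothionein gene Mt2 had 0 against 405 UMIs, at least 28.4-fold higher, and Lin28b, a regulator of the fetal blood program, had 2 against 216, a ratio of 22.7 (6.22 to 189). Of the developmental transcription factors only 7 of 133 listed passed the filter on low counts in class 13, and of those 3 rose: Isl1, Foxc1 and Lhx2. Because a gene near 0 in Control passes that filter through the Ezh2 knockout libraries, this count is a description. Over all cells 34 of the 133 were tested, and 1 rose and none fell, where 2.99% of all genes rose. Their median log2 change was -0.11, and DESeq2 called 4 higher, against 1128 of all 18357 genes. Without class 13 cells none of 28 tested was called, where 0.418% of all genes were, with a median of -0.27.

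Of 91 adhesion and guidance genes best known from neurons, 30 passed the filter in class 13. Of these 12 rose and none fell, where 6.21% of all genes rose and 1.48% fell, a count with the same limit as that of the developmental factors. Sdk1, an adhesion molecule, was at 32.3 and 46.3 CPM in Control and 165 and 162 CPM in Ezh2 knockout class 13 cells (log2 change 2.18 ± 0.14), and Ncam1, a neural cell adhesion molecule, at 1.14 and 0 against 14.2 and 25.4 CPM. Over all cells 7 of 76 rose (2.99% of all genes did) and 2 fell (0.719%), and without class 13 cells, where 0.418% of all genes were called, Ncam1 alone was called. Among called genes of at least 10 CPM over all cells with no overlap between the groups and an established symbol, Tmem108 had the largest rise. This membrane protein with a role in neurons was at 17.6 and 7.16 CPM in Control and 113 and 76.4 CPM in Ezh2 knockout (log2 change 3.03 ± 0.31, edgeR adjusted p = 0.0243). That call was lost without Ezh2 KO 1 (3.03, adjusted p = 0.0651).

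Some genes of the BMP and Wnt pathways rose in class 13. BMP signals act through receptors such as Bmpr1a and induce Id genes, which block basic helix-loop-helix factors. Bmpr1a was at 0.711 and 0.916 CPM in Control and 14.0 and 21.4 CPM in Ezh2 knockout class 13 cells (log2 change 4.38 ± 0.34), and Id1 at 1.56 and 0.916 against 17.1 and 29.6 CPM (3.88 ± 0.28). In class 13, where 6.21% of all genes rose, 25 of 42 TGF-beta and BMP pathway genes passed the filter, of which 6 rose and 1 fell. Of 56 Wnt pathway genes 24 passed it, of which 7 rose and none fell, including the receptor Fzd3 at 0.569 and 0 against 7.85 and 11.7 CPM. Genes near 0 in Control, such as Fzd3, Bmpr1a and Id1, pass the filter through the Ezh2 knockout libraries, so these counts are descriptions. Outside class 13 Bmpr1a was still called: without those cells its log2 change was 1.52 (edgeR adjusted p = 0.022). No Wnt pathway gene of 43 was called there by edgeR, where 0.418% of all genes were called. Before adjustment 10 were higher and 0 lower at p under 0.05. The number of all genes with such a p in that fit is not given here, so these counts are not read as a shift of the pathway.

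Part of the stem cell genes rose in class 13. There 10 of 35 HSC genes that passed the filter rose and 2 fell, where 6.21% of all genes rose and 1.48% fell. Over all cells 1 of 40 rose and 3 fell, against 2.99% and 0.719% of all genes, with a median log2 change of -0.14. The stem cell factor Mecom was at 54.7 and 77.0 CPM in Control and 73.9 and 121 CPM in Ezh2 knockout class 13 cells (log2 change 0.56 ± 0.10), where the male Ezh2 knockout value lay under the female Control value, and Hlf at 41.8 and 52.2 against 59.1 and 83.4 CPM (0.60 ± 0.11). B lineage genes moved both ways within class 13, with 5 higher and 2 lower of 28 and a median log2 change of 0.11, against the same 6.21% and 1.48% of all genes. Cd79b, part of the B cell receptor, was at 363 and 343 CPM in Control and 482 and 438 CPM in Ezh2 knockout (0.42 ± 0.09), and Vpreb2, Ighd and Ms4a1 also rose. The other gene called higher, Igkc, was called so in 8 classes but not over all cells (log2 change 0.34). Whether its counts are expression in those cells was not tested, as for Igha. Blk, a B cell kinase, fell, at 30.9 and 28.9 against 12.5 and 9.12 CPM (-1.39 ± 0.14), as did Dntt, the terminal transferase of antigen receptor recombination, at 1055 and 1005 against 853 and 688 CPM (-0.39 ± 0.08). Early lymphoid genes were split within class 13, with 4 higher and 4 lower of 23, against those same shares.

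Of 8 fetal program genes tested 3 rose and none fell over all cells, where 2.99% of all genes rose. Hmga2, an architectural chromatin protein of fetal stem cells, was at 37.3 and 44.2 CPM in Control, 104 and 111 CPM in Ezh2 knockout and 53.4 and 70.3 CPM in Jarid2 knockout libraries (log2 change against Control 1.45 ± 0.08, adjusted p = 0.0129). It rose in 10 of 12 classes, by 0.93 to 2.38 on the log2 scale. In the HSC-like class 3 it was 50.5 and 53.4 against 61.2 and 68.2 CPM (0.34 ± 0.08, adjusted p = 0.15), while in the histone-led cycling class 4 it was 35.2 and 40.2 against 139 and 147 CPM (1.96 ± 0.07). Plag1, a growth-promoting zinc finger factor, was at 17.4 and 18.7 against 30.5 and 29.6 CPM (0.78 ± 0.07). Igf2bp3, a fetal RNA-binding protein, was at 11.5 and 10.8 against 20.1 and 17.5 CPM (0.79 ± 0.07), and without class 13 cells its log2 change was -0.02. Hmga2 and Plag1 remained called without class 13 cells.

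Without class 13 cells 76 of 18161 genes were called (0.418%), 60 higher (0.33%) and 16 lower (0.0881%), and 73 of the 76 were among the 681. Among genes of at least 10 CPM named by rule, those still called included Ppm1e, a protein phosphatase, at 17.7 and 16.3 against 61.4 and 48.1 CPM over all cells (log2 change 1.72 ± 0.11), Cnn3, Ifi27l2a and Hist1h2bl among the higher, and Pde1c, Cavin2, Ccser1, Pdgfd and Cyp7b1 among the lower. All 9 of these held without any 1 library over all cells.

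Among called genes of at least 10 CPM with no overlap between the groups and an established symbol, the largest fall was that of Pde1c, a phosphodiesterase that degrades cyclic nucleotides. Its level was 27.8 and 30.8 CPM in Control, 7.36 and 9.77 CPM in Ezh2 knockout and 31.2 and 35.0 CPM in Jarid2 knockout libraries (log2 change -1.74 ± 0.07, adjusted p = 0.00752). It fell in 8 of 11 classes tested, the HSC-like class 3 among them, with 66.5 and 74.8 CPM in Control against 20.1 and 20.7 CPM in Ezh2 knockout. In class 13 it was low in every library, at 4.83 and 6.41 against 4.33 and 5.08 CPM. Ccser1, a coiled-coil protein, was at 165 and 130 against 71.4 and 73.7 CPM (-0.97 ± 0.10) and also fell in 8 classes.

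Across classes, 31 genes were called in at least 8 of the 12. Pbx3, a homeobox cofactor, rose in 11 classes: over all cells it was 54.3 and 57.3 CPM in Control, 115 and 112 CPM in Ezh2 knockout and 48.0 and 44.0 CPM in Jarid2 knockout libraries (log2 change 1.07 ± 0.06, adjusted p = 0.0129), and in class 13 the log2 change was 2.97 ± 0.16. The dynein light chain gene Dynll1 rose in 11 classes, and the fatty acid carrier Fabp5 and Ppm1e in 10. Counts of the immunoglobulin gene Igha were called higher in all 12 classes, by 2.74 to 4.16 on the log2 scale, yet over all cells its log2 change of 1.96 ± 0.49 did not pass (adjusted p = 0.0936). The small class 14, led by immunoglobulin genes, held Igha at 26047 and 12054 CPM in Control and 54364 and 52407 CPM in Ezh2 knockout. The 12 classes tested were between 5.61 and 38.4 CPM in the Ezh2 knockout libraries. Whether these counts are expression in those cells, and the part of free RNA in them, was not tested. In class 4 Igha was 0.792 and 1.06 CPM in Control, 9.81 and 15.6 CPM in Ezh2 knockout, and 5.32 and 3.19 CPM in Jarid2 knockout.

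**Figure D3:**
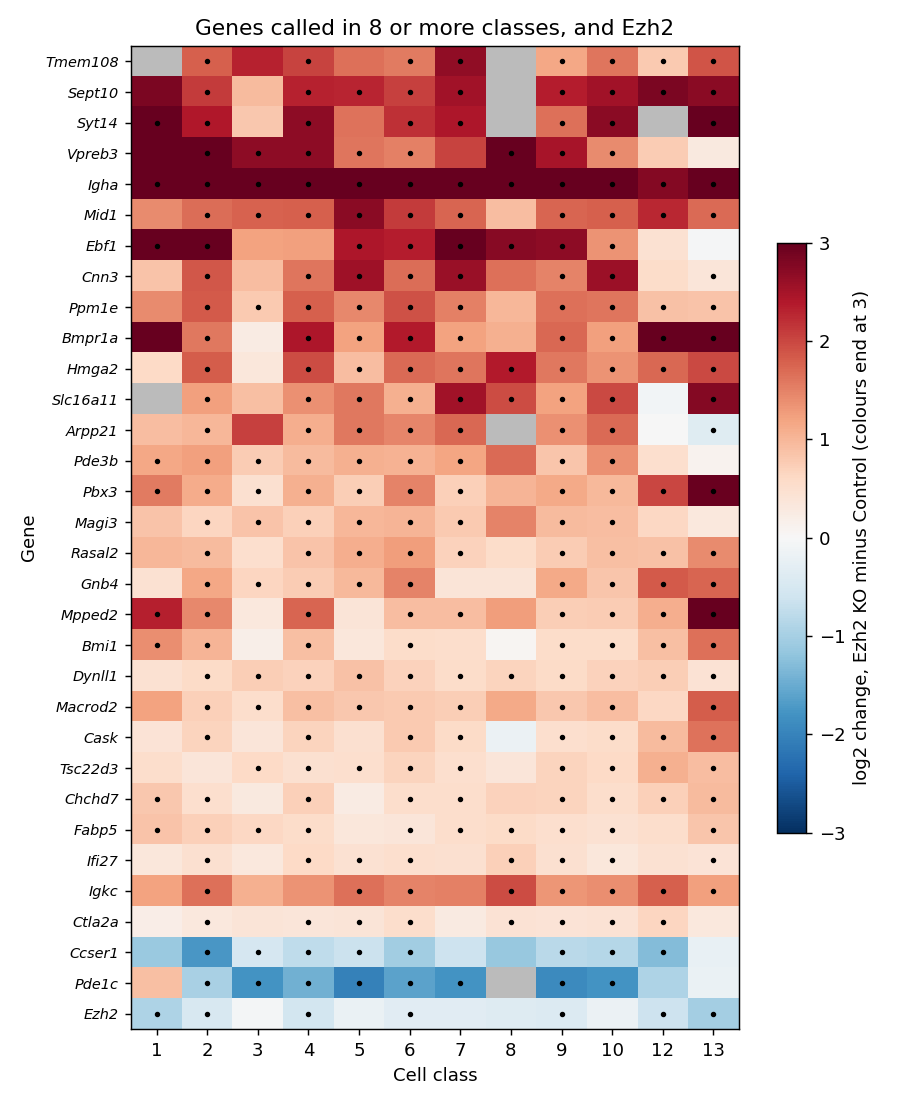
Log2 change (Ezh2 knockout minus Control, colour, ending at 3 in each direction) of the 31 genes called in at least 8 classes, and of Ezh2, in the 12 classes tested; black dots mark calls and grey marks genes not tested in a class. Ccser1 and Pde1c are lower wherever they were called, Arpp21 is called higher in 7 classes and lower in class 13, and Ezh2 has 7 dots.

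B cell transcripts were also higher in classes that were not B-lineage-like. Vpreb3, part of the pre-B cell receptor complex, rose in 8 classes outside class 13: in the HSC-like class 3 it was 2.78 and 0.737 CPM in Control and 12.2 and 9.53 CPM in Ezh2 knockout. Within class 13 it was 2059 and 2580 against 2753 and 2733 CPM. Ebf1, the B lineage master factor, likewise rose in 8 classes. Class 13 made up 6.72% and 2.24% of Control and 21.2% and 12.3% of Ezh2 knockout cells, and the part of free RNA from those cells in the other classes was not tested. Over all cells 7 of 31 B lineage genes rose (median log2 change 1.60), where 2.99% of all genes did, and without class 13 cells 1 did (median 0.67), where 0.330% of all genes did.

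Early lymphoid transcripts were also higher in several classes outside class 13. Over all cells 7 of 23 rose and none fell (2.99% of all genes rose), with a median log2 change of 0.40, and without class 13 cells 4 rose (0.330% of all genes) with a median of 0.40. The counts were 10 of 23 in class 4 (where 1.38% of all genes rose), 9 of 23 in class 6 (unnamed, with Flt3 among its leading genes, 1.49%), 8 of 23 in class 9 (1.78%) and 7 of 21 in class 10 (1.07%), with none lower. In Control libraries 10 of the 23 genes, Arpp21, Cnn3 and Il7r among them, were higher in class 13 than in the other cells. The part of free RNA from class 13 cells in the counts of the other classes was not tested. Arpp21, a phosphoprotein of lymphoid precursors, was at 64.2 and 31.3 CPM in Control, 122 and 73.0 CPM in Ezh2 knockout and 44.9 and 24.4 CPM in Jarid2 knockout libraries (log2 change 1.11 ± 0.07, adjusted p = 0.0129). Within class 13, where Arpp21 was more abundant, it fell, from 329 and 394 CPM in Control to 277 and 265 CPM in Ezh2 knockout (-0.37 ± 0.09, adjusted p = 0.0325). Cnn3, an actin-binding protein, was at 22.7 and 8.70 against 60.1 and 35.2 CPM (1.73 ± 0.16). In each genotype the male library had the higher level of both genes. Il7r, the interleukin 7 receptor needed for B cell growth, was at 36.1 and 14.7 against 89.1 and 54.9 CPM (1.61 ± 0.25, adjusted p = 0.0421). The Il7r call was lost without Control 2 (log2 change 1.23, adjusted p = 0.0532), Ezh2 KO 1 (1.60, adjusted p = 0.114) or Ezh2 KO 2 (1.62, adjusted p = 0.0725), and without class 13 cells (0.84, adjusted p = 0.139).

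Part of the megakaryocyte genes fell. Of 33 tested, 7 fell and none rose over all cells, where 0.719% of all genes fell, with a median log2 change of -0.29. Among the lower genes, Itgb3, Rab27b and Selp lost the call in most fits that left out 1 library. Without class 13 cells 2 fell, where 0.0881% of all genes did, with a median of -0.27. Vwf, the platelet adhesion factor and a marker of platelet-biased stem cells, was at 7.35 and 11.8 CPM in Control, 3.73 and 5.70 CPM in Ezh2 knockout and 5.66 and 8.52 CPM in Jarid2 knockout libraries (log2 change -0.97 ± 0.08, adjusted p = 0.0204). That call was lost without Control 2 (-0.93, adjusted p = 0.0591). Cavin2, a protein of membrane caveolae abundant in platelets, was at 12.4 and 17.7 against 6.33 and 7.79 CPM (-1.04 ± 0.10). In the megakaryocyte-like class 7, Vwf was 25.8 and 46.7 against 17.8 and 23.8 CPM (-0.77 ± 0.12, adjusted p = 0.0238), so its fall was also present within that class. Of the HSC genes, Apoe, Angpt1 and Prdm16 fell over all cells, calls that were lost in 2, 5 and 6 of the 6 fits that left out 1 library. In the HSC-like class 3 none of 39 HSC genes was called by edgeR (3 higher and 5 lower at p under 0.05 before adjustment), and the median log2 change was 0.02. Of all 13556 genes tested in that class 1277 had such a p before adjustment.

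Mitosis and histone genes rose over all cells and much less without class 13. Of all genes tested 2.99% rose over all cells, 0.330% without class 13 cells and 6.21% within class 13, where 1.48% fell. Of 57 mitosis genes 23 rose over all cells and none fell (median log2 change 0.45), 1 rose without class 13 cells (median 0.22), and within class 13 1 rose and 3 fell (median -0.09). Birc5, a subunit of the chromosomal passenger complex, was at 107 and 96.5 CPM in Control and 161 and 147 CPM in Ezh2 knockout (0.64 ± 0.08, adjusted p = 0.0326), and without class 13 cells its log2 change was 0.29 (adjusted p = 0.07). Its call was lost without Control 2 (0.57, adjusted p = 0.0841) or Ezh2 KO 1 (0.56, adjusted p = 0.079). Replication-dependent histone genes gave 15 higher of 40 over all cells (median 0.46), 1 without class 13 cells (median 0.22), and 1 higher with 4 lower within class 13 (median -0.20). In Control libraries 56 of 57 mitosis genes were higher in class 13 than in the other cells, and the part of the larger class 13 share in these counts was not tested beyond the fits without that class.

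**Figure D4:**
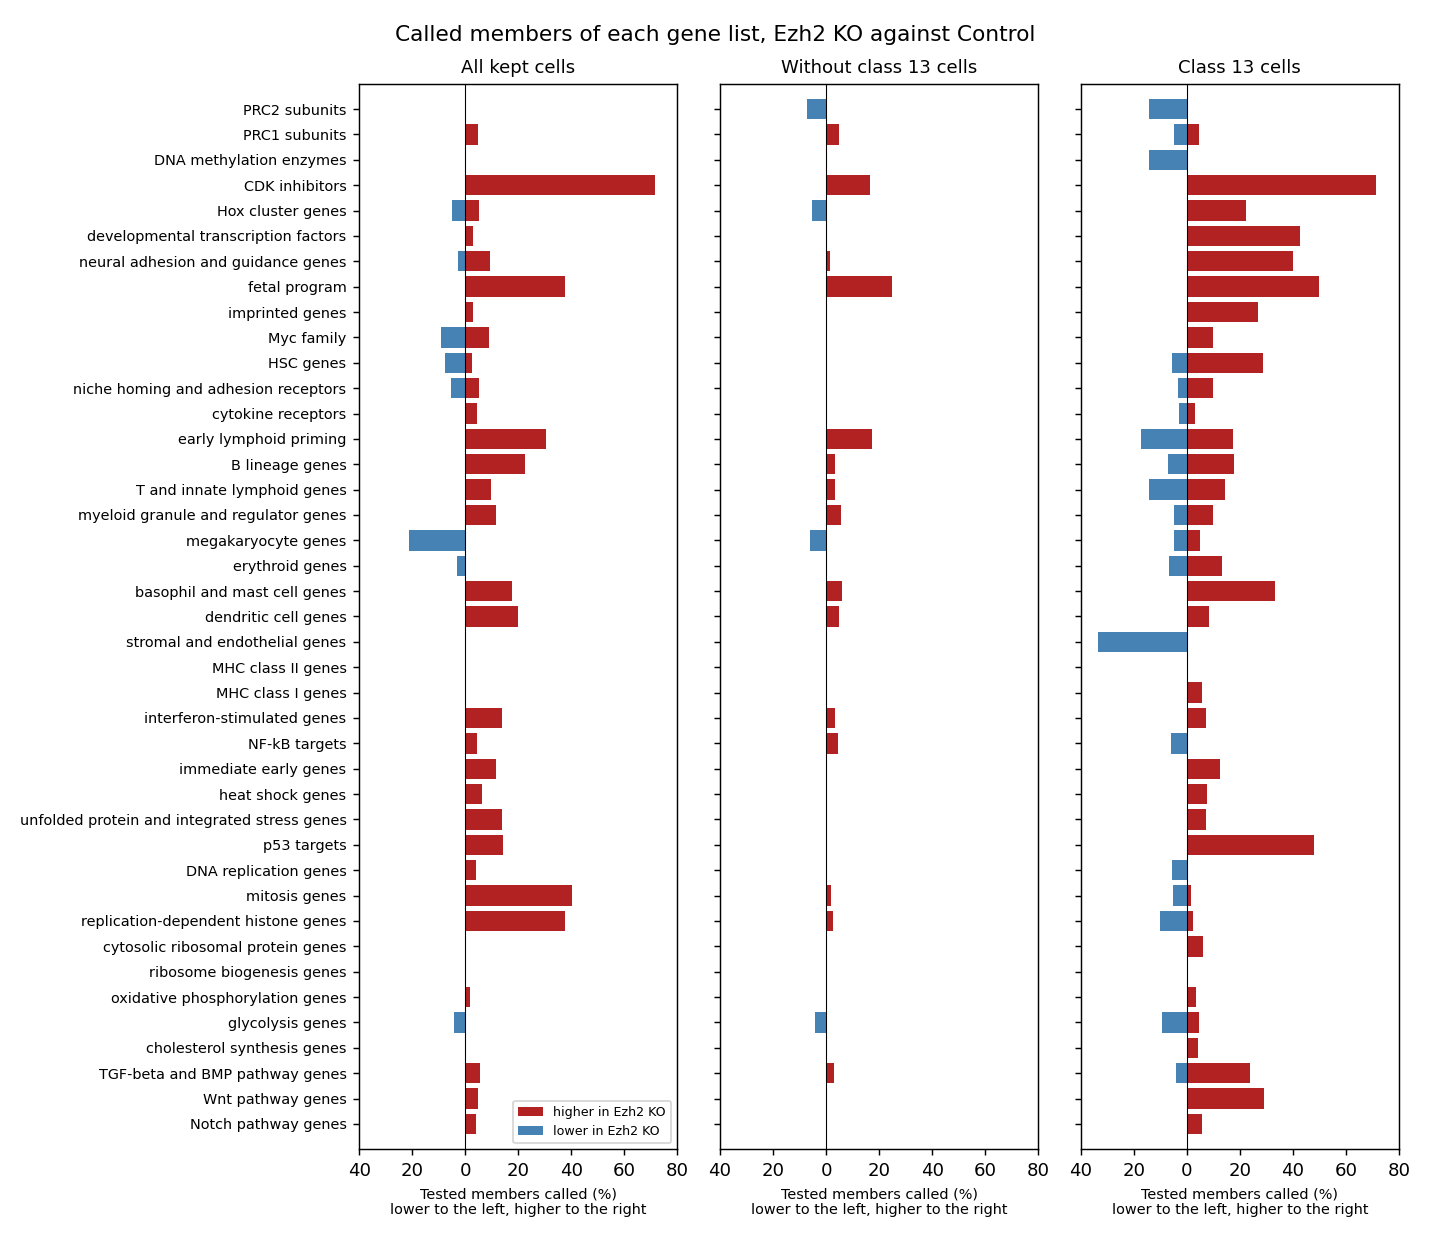
Percent of tested members called higher (red, to the right) or lower (blue, to the left) in Ezh2 knockout for each gene list, over all kept cells, without class 13 cells and within class 13. Mitosis and histone genes are called mainly in the first panel, and p53 targets mainly within class 13. Lists of which few members passed the filter in class 13, such as the developmental factors with 7 of 133, are drawn over those few.

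Interferon-stimulated genes rose in a few classes. Over all cells 8 of 58 rose and none fell (median log2 change 0.10), where 2.99% of all genes rose, and without class 13 cells 2 did (0.330%). In class 6, 20 of 58 rose and none fell (median 0.34, against 1.49% of all genes higher there), including Ifit1, Isg15, Irf7, Oas2, Usp18 and Cxcl10, which are antiviral effectors, regulators and a chemokine. In class 9, 9 of 56 rose (1.78% of all genes did) and 1 fell. In the HSC-like class 5, 8 of 58 rose (0.695% of all genes did), and in the HSC-like class 3 1 of 55 did (0.207%). Irf7, the regulator of type I interferon genes, was at 6.46 and 7.70 CPM in Control, 8.91 and 11.9 CPM in Ezh2 knockout and 5.94 and 7.35 CPM in Jarid2 knockout libraries over all cells (log2 change 0.59 ± 0.08, adjusted p = 0.033), with the call lost in each of the 6 fits that left out 1 library (log2 changes 0.53 to 0.64). All groups carried the interferon-responsive Cre driver.

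CD48 was higher as transcript and as surface protein outside class 13. Cd48 transcript was at 94.5 and 76.9 CPM in Control, 120 and 103 CPM in Ezh2 knockout and 66.6 and 51.3 CPM in Jarid2 knockout libraries (log2 change 0.43 ± 0.05, adjusted p = 0.0277), and it rose within 6 of 12 classes. In the HSC-like class 5 it was 14.1 and 4.89 against 30.9 and 26.8 CPM (1.42 ± 0.19). The median CD48 antibody count in cells outside class 13 was 746 and 623.5 in Control, 1309 and 1079 in Ezh2 knockout and 519 and 406 in Jarid2 knockout libraries. In both readouts the order was Jarid2 knockout, Control, Ezh2 knockout with no overlap. Cd48 was chosen for description after its values were seen, and the antibody medians were not tested.

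A few granule and mast cell genes of very low level rose. Of 35 myeloid granule and regulator genes 4 rose and none fell, where 2.99% of all genes rose, with a median log2 change of 0.01. Among them the Fcnb call was lost in every fit that left out 1 library, and those of S100a9 and Irf8 in most. Fcnb had 0 and 1 UMIs in Control, 18 and 25 in Ezh2 knockout and 17 and 15 in Jarid2 knockout libraries, so it passes the filter through the knockout libraries. Of 17 basophil and mast cell genes tested 3 rose and none fell, a description, since Mcpt4 and Tpsb2 pass the filter through the Ezh2 knockout libraries, while the summed level of that list was 1558 and 1515 CPM in Control and 1364 and 1427 CPM in Ezh2 knockout. S100a8, an inflammatory granule protein, was at 1.17 and 1.22 CPM in Control, 4.23 and 3.28 CPM in Ezh2 knockout and 2.82 and 2.98 CPM in Jarid2 knockout libraries (log2 change 1.69 ± 0.17, adjusted p = 0.0243). Mcpt4, a mast cell chymase, had 0 UMIs in both Control and both Jarid2 knockout libraries and 57 and 61 in the Ezh2 knockout libraries, at least 28.9-fold higher against a floor of 3 counts over the Control group. In class 1 Mcpt4 was at 16.2 and 19.2 CPM in the Ezh2 knockout libraries, and in every other class at 2.16 CPM or less. Among the higher genes of class 1 were 29 of 34 erythroid markers and 3 of 18 basophil and mast cell markers. Tpsb2, a mast cell tryptase, had 1 UMI in Control and 187 in Ezh2 knockout, a ratio of 137 with an exact interval of 24.3 to 5448. The Mcpt4 call was lost in 5 of the 6 fits that left out 1 library (every one except that without Jarid2 KO 2; log2 changes 8.49 to 8.78), and the Tpsb2 call without Control 2 (8.17), Ezh2 KO 1 (6.85) or Ezh2 KO 2 (7.34).

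Of 20 Hox genes tested, classic Polycomb targets, 1 rose and 1 fell over all cells, where 2.99% of all genes rose and 0.719% fell, and the median log2 change was -0.19. In class 13, where 9 of 39 passed the filter, 2 rose and none fell, against 6.21% and 1.48% of all genes tested there. A gene near 0 in Control passes that filter through the Ezh2 knockout libraries, so this count is a description. Hoxa7 was at 61.6 and 55.1 CPM in Control and 43.9 and 41.0 CPM in Ezh2 knockout (-0.42 ± 0.04, adjusted p = 0.022), a call lost without Control 1 (-0.40, adjusted p = 0.0506) or Control 2 (-0.44, adjusted p = 0.0553). Hoxb7 was at 0.217 and 0.146 against 0.671 and 0.806 CPM. It rose by 2.08 over all cells, a call lost in every fit that left out 1 library, and in class 13 it rose by 3.16. Lists of general growth functions held few calls by edgeR: none of 80 ribosomal protein genes (9 higher and 1 lower at an unadjusted p under 0.05, and 6 higher by DESeq2) and none of 32 ribosome biogenesis genes (0 higher and 3 lower before adjustment, and none by DESeq2) passed, while 1 of 56 oxidative phosphorylation genes rose and 1 of 23 glycolysis genes fell. Of all 18357 genes tested 4373 had an unadjusted edgeR p under 0.05, and DESeq2 called 1128 higher and 381 lower. For oxidative phosphorylation 20 were higher and none lower at an unadjusted p under 0.05, and DESeq2 called 13 higher. For glycolysis 1 was higher and 8 lower before adjustment, and DESeq2 called 1 higher and 3 lower.

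Several of the lower genes lay on the chromosome of Ezh2. On RefSeq GRCm38.p6 Ezh2 lies on chromosome 6 at 47530274 to 47595270, and 16656 tested genes (90.7%) could be placed. Within 20 Mb of Ezh2 236 genes were tested, 6 rose and 15 fell, so that 6.36% were lower, against 1.08% in the rest of chromosome 6 and 0.787% of all placed genes. Pde1c (8.54 Mb away), Ccser1 (13.6 Mb), Fkbp9 (9.30 Mb), Nfe2l3 (3.90 Mb) and Hoxa7 (4.69 Mb) were among the lower genes there, and Igf2bp3 (1.55 Mb) and Jazf1 (5.24 Mb) among the higher. On chromosome 1, Ifi202b, an interferon-inducible DNA sensor, had 0 UMIs in Control, 361 and 750 in Ezh2 knockout and 0 and 1 in Jarid2 knockout libraries, at least 272-fold higher. Within 5 Mb of it 111 genes were tested, 6 rose, among them Ifi204, Ifi214 and Cd48, and Cd84 fell (6.31% called, against 4.56% on chromosome 1 and 4.01% of all placed genes). Both windows were chosen after values were seen, strain is not in the labels, and any part of strain-derived sequence near the targeted allele was not tested.

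**Figure D5:**
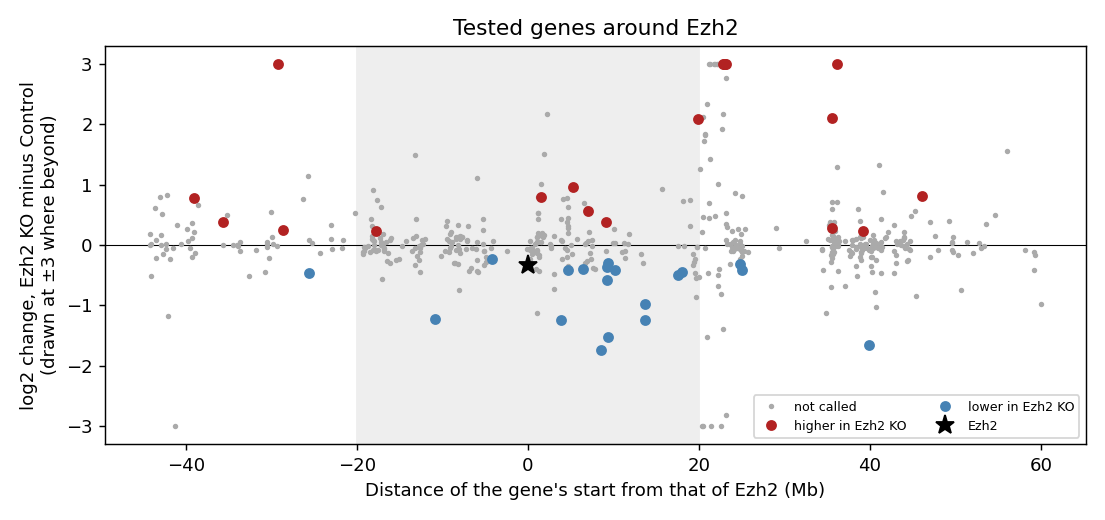
Log2 change (Ezh2 knockout minus Control) of tested genes against the distance of their start from that of Ezh2 (Mb), with called genes in colour, values beyond 3 drawn at 3 and the 20 Mb window shaded. In the window 15 genes are lower and 6 higher.

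CpG content of promoters is given for the higher and the lower genes. Among genes with a mean of at least 10 CPM a RefSeq window was found for 81.0% of those tested, 82.0% of the higher and 80.6% of the lower. Genes with at least 1 CpG-rich start window made up 72.6% of 7401 tested, 73.4% of 237 higher and 50.6% of 87 lower genes, a description with no test. Without the limit on level, such genes were 58.0% of 13197 tested and 41.3% of 172 called higher by over 1 on the log2 scale. For these 2 groups a window was found for 71.9% and 70.2% of genes. Pde1c is shown as an example of a window with few CG pairs (minus strand, every CG in capitals), 1 of its 3 start windows.
Pde1c, chr6:56362393-56362642: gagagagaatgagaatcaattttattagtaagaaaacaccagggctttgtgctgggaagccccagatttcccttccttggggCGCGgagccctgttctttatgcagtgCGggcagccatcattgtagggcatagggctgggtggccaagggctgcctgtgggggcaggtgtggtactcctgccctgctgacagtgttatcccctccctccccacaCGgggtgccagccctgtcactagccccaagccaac
It holds 4 CG pairs, with a GC content of 58.0% and an observed to expected ratio of 0.190, and the other two hold 7 and 1 CG pairs, with ratios of 0.458 and 0.0874.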

How the data were processed

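The authors deposited raw UMI counts per gene and barcode for each library. Per the file headers these counts were made with Cell Ranger 7.2.0, while the submitters' processing notes list Cell Ranger 3.1.0, Seurat 3.0, Partek and mm10. Gene counts were summed per library over kept barcodes and tested with edgeR 4.0.16 (quasi-likelihood, TMM, filterByExpr, terms for genotype and sex) in R 4.3.3 over all 6 baseline libraries, with Benjamini-Hochberg adjustment over all genes and a threshold of 0.05. Sex is the replicate number in the labels, so the sex term acts as a replicate block. Classes were made with scanpy 1.11.5 (Leiden, resolution 0.6, 2000 variable genes without the 681 called ones, 30 components, 15 neighbours, cells scaled to 10000 UMIs), and 12 classes with at least 50 cells in every library were tested on sums in the same way. A class was named only from listed markers. Scrublet's automatic threshold marked few cells, so the highest-scoring cells, up to 0.8% per 1000 barcodes, were marked as doublets; they stayed in the fits and were removed in an alternative. The fit was tested on simulated counts.

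Members, windows and gene lists were chosen with earlier results of these data known. Named genes were Ezh2, Ezh1, Eed, Suz12, Jarid2 and Cdkn2a, the 12 called genes with the highest and the 12 with the lowest change among those with a mean of at least 10 CPM, an established symbol and no overlap between the groups, and up to 4 called genes of each of 41 lists, or the 2 with the highest level where none was called. Other genes in the text were chosen after their values were seen. Ratios of few counts are scaled by UMI totals, with exact 95% intervals. Alternatives were other normalization, filters, cell sets, models, left-out libraries, cluster resolutions and DESeq2 1.42.0; fits without class 13 cells were added after seeing the data.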

Additional observations from a re-analysis of the deposited data

Results flagged for a closer look

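For 9 classes the share of cells moved one way between the male libraries and the other way between the female libraries (Ezh2 knockout against Control), with 1 library per sex and genotype, and the difference was not tested. The log2 changes in the male and female pairs were 0.539 and -1.55 in class 1 and 0.0972 and -0.144 in class 2. They were -0.174 and 0.246 in class 4, -0.418 and 0.0569 in class 5 and -1.18 and 0.391 in class 8. In class 14 they were -0.174 and 0.608, in class 15 -0.252 and 1.15, in class 16 -0.111 and 0.603, and in class 17 0.857 and -1.03. Class 13 is not among them: its share was higher by 1.66 in males and 2.45 in females on the log2 scale. All these shares are of all kept cells, so a larger class 13 lowers every other share. Cells outside class 13 made up 93.3% and 97.8% of Control and 78.8% and 87.7% of Ezh2 knockout cells. The sign of a small change in another class can therefore differ when its share is taken over cells outside class 13.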

How the results depend on the processing

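The 681 calls became 1171 with no filter on low counts, 336 from the Ezh2 knockout and Control libraries only, 1509 with DESeq2, 76 without class 13 cells, 50 without cells carrying B lineage genes (a gate chosen on expressed genes that took a large part of every library), and 176 to 623 with 1 library left out. Without the sex term, that is without the replicate block that pairs male with male and female with female, 19 genes were called, the calls within classes went from 2556 to 702, and the class 13 share had a log2 change of 1.90 with an adjusted p of 0.542. Libraries of 1 sex are different mice, so the pairing rests on sex alone. Other size factors, doublet removal and stricter or looser cell filters gave 630 to 744 calls. At double cluster resolution most class 13 cells lay in 2 classes, whose shares changed by 1.86 and 2.46 (adjusted p = 0.125 for both); the class 13 share changed by 1.45 to 2.70 with 1 library left out, and calls within classes then ranged from 2473 to 3298. Of the 96 called named genes 93 were called by DESeq2 and 32 to 74 with 1 library left out, always with the same sign. Signs turned only with cells removed: Hoxb7 -0.99, Efna5 -0.0548 and Igf2bp3 -0.0162 without class 13 cells, and Efna5 -0.0904, Igf2bp3 -0.095, Irf8 -0.14 and Trp53inp1 -0.0121 without B lineage cells. These fits hold fewer cells; the cause was not tested further. Depth limits statements on genes under about 1 CPM.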

Other observations

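Of 29 unfolded protein and integrated stress genes 4 rose over all cells and none fell, against 2.99% of all genes tested that rose, with 11 higher and none lower before adjustment at a p under 0.05 and 8 higher by DESeq2. Of all 18357 genes tested 4373 had such a p before adjustment, and DESeq2 called 1128 higher. None of the 29 stress genes was called without class 13 cells, where 0.418% of all genes were called. Among the 4 was Ddit4, a repressor of mTOR signalling, at 7.50 and 7.65 CPM in Control and 12.8 and 12.8 CPM in Ezh2 knockout (log2 change 0.80 ± 0.08, edgeR adjusted p = 0.0266), a call lost in 3 of the 6 fits that left out 1 library. The calls of the other 3, Manf, Edem1 and Xbp1, were lost in all 6 fits. The chemokine gene Ccl4 was at 48.8 and 34.8 CPM in Control and 70.3 and 48.2 CPM in Ezh2 knockout (0.54 ± 0.04, adjusted p = 0.0181), where the female Ezh2 knockout value lay under the male Control value. Its call held without any 1 library and without class 13 cells. Notch pathway genes gave 1 call of 24, where 3.71% of all genes were called. This was Hes1, a Notch-induced repressor, at 7.89 and 3.83 against 23.3 and 14.2 CPM (1.75 ± 0.20, edgeR adjusted p = 0.029). The Hes1 call was lost without Ezh2 KO 1 (log2 change 1.67).

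No MHC class I gene of 18 and no MHC class II gene of 11 was called by edgeR (before adjustment, at a p under 0.05, 1 was higher and 2 were lower in all; DESeq2 had 1 class II gene lower), and no gene of 24 in cholesterol synthesis (7 higher before adjustment, and 2 by DESeq2). None of 12 stromal and endothelial genes was called (1 higher and 1 lower before adjustment, none by DESeq2), and the same holds for 8 DNA methylation enzymes by edgeR (1 higher and 2 lower, and 1 higher by DESeq2). Of all 18357 genes tested 3.71% were called by edgeR and 4373 had an unadjusted p under 0.05. DESeq2 called 1128 higher and 381 lower. In lists this short a lack of calls does not show that no gene changed.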
